A study of Mus musculus with 2 samples.

Results

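Keratin genes were followed through DNase-seq of mouse urinary bladder, an assay that reads open chromatin from where DNase I, a nuclease, is able to cut. The set held every protein-coding gene of the GENCODE M21 annotation whose symbol is Krt followed by digits and at most 1 letter, which left out the keratin-associated Krtap genes. There were 53 such genes among 21951 protein-coding genes, 26 in the type II cluster on chromosome 15 and 27 in the type I cluster on chromosome 11. The tissue came from male B6CASTF1/J mice aged 36 days, F1 hybrids of C57BL/6J and CAST/EiJ. There was 1 group, urinary bladder, with 2 libraries, called replicate 1 and replicate 2, which the labels describe as separate males under a shared donor identifier. No treatment, genotype or second tissue was compared, so the values below are descriptions with the spread between 2 libraries and no test.

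Keratins are the intermediate filament proteins of epithelia, and a filament forms only where an acidic type I keratin pairs with a basic type II keratin. Simple epithelia use Krt8 and Krt18, often with Krt7, Krt19 and Krt20. Stratified epithelia use Krt5 and Krt14 in their basal cells and other pairs, such as Krt1 and Krt10 in epidermis, above them, whereas hair keratins build the hair shaft and its root sheath. In the urothelium, the epithelium that lines the bladder, Krt5 marks basal cells and Krt20 marks the umbrella cells at the surface. By these roles the set was divided into 5 simple, 15 stratified, 23 hair (15 of the shaft and 8 of the inner root sheath and companion layer) and 10 unassigned genes.

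Sequences of some of the starts and sites described below are shown first. They came from RefSeq promoters and from the GRCm38.p6 genome, which shares coordinates with the mm10 build of the deposited lists. Capitals mark bases that lay in a footprint, a short stretch protected from DNase I, in both libraries. The first set holds the promoters of 3 simple keratins and of the basal keratin Krt5, from 250 bases before to 50 bases after the start that RefSeq gives.
Krt7 (chr15:101412153-101412452, + strand): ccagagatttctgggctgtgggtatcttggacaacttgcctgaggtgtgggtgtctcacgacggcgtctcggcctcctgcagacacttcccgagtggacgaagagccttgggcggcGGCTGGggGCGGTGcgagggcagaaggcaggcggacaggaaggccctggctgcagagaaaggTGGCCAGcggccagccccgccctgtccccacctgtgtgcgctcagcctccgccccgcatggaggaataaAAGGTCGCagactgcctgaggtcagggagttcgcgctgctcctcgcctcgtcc
Krt18 (chr15:102027966-102028265, + strand): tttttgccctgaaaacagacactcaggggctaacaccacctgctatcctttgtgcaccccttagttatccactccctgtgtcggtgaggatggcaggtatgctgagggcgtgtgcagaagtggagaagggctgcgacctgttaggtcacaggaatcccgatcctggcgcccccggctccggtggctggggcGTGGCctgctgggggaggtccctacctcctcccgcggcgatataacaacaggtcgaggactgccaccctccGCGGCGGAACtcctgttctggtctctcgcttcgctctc
Krt8 (chr15:102004293-102004592, - strand): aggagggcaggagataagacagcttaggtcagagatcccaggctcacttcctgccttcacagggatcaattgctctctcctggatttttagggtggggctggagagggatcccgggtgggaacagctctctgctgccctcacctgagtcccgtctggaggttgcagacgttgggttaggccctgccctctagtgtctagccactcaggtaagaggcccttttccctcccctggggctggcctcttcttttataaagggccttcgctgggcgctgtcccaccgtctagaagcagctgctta
Krt5 (chr15:101712856-101713155, - strand): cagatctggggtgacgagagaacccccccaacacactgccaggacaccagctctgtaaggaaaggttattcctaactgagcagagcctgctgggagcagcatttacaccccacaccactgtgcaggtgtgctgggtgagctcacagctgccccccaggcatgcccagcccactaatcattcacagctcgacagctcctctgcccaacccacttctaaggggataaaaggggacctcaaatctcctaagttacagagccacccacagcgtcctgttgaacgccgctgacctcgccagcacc

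The second set holds 6 of the 10 strongest accessible sites of the clusters away from any gene start, numbered by strength and printed on the + strand over the peak of replicate 1. Sites 1, 3, 4, 7 and 6 stand in this order between Krt78 and Krt8, and site 9 lies upstream of Krt20.
site 1 (chr15:101973741-101973940): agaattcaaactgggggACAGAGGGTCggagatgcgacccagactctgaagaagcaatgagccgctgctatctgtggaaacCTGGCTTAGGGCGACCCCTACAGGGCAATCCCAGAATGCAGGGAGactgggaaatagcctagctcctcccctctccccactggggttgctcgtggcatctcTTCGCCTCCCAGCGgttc
site 3 (chr15:101977381-101977580): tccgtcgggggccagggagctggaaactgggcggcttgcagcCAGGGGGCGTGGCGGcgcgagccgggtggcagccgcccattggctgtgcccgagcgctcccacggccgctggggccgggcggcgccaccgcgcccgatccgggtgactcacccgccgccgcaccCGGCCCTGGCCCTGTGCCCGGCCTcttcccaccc
site 4 (chr15:101984001-101984220): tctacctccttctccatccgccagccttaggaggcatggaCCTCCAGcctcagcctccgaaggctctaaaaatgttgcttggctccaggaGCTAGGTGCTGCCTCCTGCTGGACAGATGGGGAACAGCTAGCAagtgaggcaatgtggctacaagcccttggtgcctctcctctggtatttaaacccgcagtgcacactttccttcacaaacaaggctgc
site 7 (chr15:101984361-101984620): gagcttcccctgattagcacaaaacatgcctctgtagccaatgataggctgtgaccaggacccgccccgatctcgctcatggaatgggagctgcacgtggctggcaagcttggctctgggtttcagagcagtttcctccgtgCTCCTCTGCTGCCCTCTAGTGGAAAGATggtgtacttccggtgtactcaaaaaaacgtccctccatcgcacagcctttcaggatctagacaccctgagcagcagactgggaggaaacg
site 6 (chr15:101988241-101988400): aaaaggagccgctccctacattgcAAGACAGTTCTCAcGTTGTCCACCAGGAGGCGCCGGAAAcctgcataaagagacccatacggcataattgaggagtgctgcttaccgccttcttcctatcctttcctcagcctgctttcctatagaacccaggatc
site 9 (chr11:99464901-99465040): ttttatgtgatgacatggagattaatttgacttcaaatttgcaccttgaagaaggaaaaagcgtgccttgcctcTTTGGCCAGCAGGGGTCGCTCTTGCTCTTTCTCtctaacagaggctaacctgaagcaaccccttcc

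The authors deposited a shorter and a longer peak list per library, with 38674 and 63793 peaks in replicate 1 and 47661 and 79598 in replicate 2. The shorter list was the main one. Peaks within 500 bases of an annotated start of a gene were counted as its start peaks, and any peak outside the start windows of all genes was called another peak. Peak height is the deposited signal value of a peak, whose scale is not given, so heights are also given as percentiles within their library. The tissue label was set beside marker genes. Start peaks were in both libraries at 7 of 10 urothelium markers, against 56.2% of all protein-coding genes. These 7 were Krt7, Krt8, Krt18 and the uroplakin genes Upk1a, Upk1b, Upk2 and Upk3a, which encode the plaque proteins of umbrella cells. The markers Krt5, Krt19 and Krt20 were not among them. All markers of this list but the uroplakin genes belong to the keratin set itself, so only the uroplakin genes are separate from the results below. Start peaks were in both libraries at 2 of 5 smooth muscle markers (Myh11 and Mylk), a share below that of all genes. They were there at 1 of 7 epidermis and hair follicle markers (Krt10), a list in which Krt1, Krt10 and Krt71 also belong to the keratin set. None of 3 prostate and seminal vesicle markers (Pbsn, Svs2, Svs4) had a peak at its start in either list.

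Most keratin genes had no start peak. In both libraries, 5 of 53 keratin genes (9.43%) had a start peak, against 56.2% of all protein-coding genes. They were the simple keratins Krt7, Krt8 and Krt18, the epidermal keratin Krt10, and Krt80, which was not assigned to a class. By class these were 3 of 5 simple, 1 of 15 stratified, 0 of 23 hair and 1 of 10 unassigned genes. Replicate 1 alone listed 7 keratin genes, against 57.8% of all protein-coding genes, and replicate 2 alone listed 8, against 58.5%. The longer list held 11 keratin genes in both libraries (20.8%), against 61.3% of all protein-coding genes, and among them were all 5 simple keratins. Each library alone listed 12 keratin genes there, against 63.0% of all protein-coding genes in replicate 1 and 63.3% in replicate 2. In bulk tissue, fewer cells of a type and less accessible chromatin per cell cannot be told apart.

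**Figure D1:**
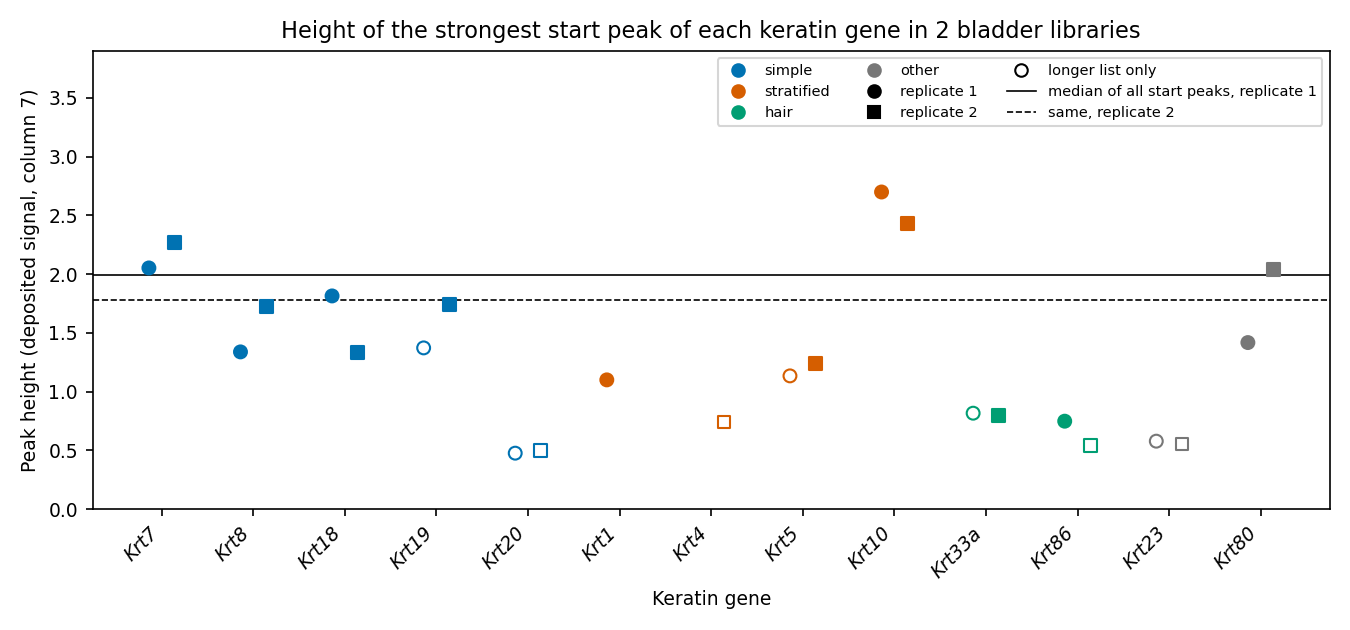
Height of the strongest start peak (deposited signal, linear axis) of the 13 keratin genes with a start peak in either list of either library, coloured by class; circles are replicate 1, squares are replicate 2 and open symbols are peaks found only in the longer list. Horizontal lines mark the median height of all start peaks, 2.00 in replicate 1 and 1.78 in replicate 2; Krt10 and Krt7 stand above them in both libraries.

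Krt7, a type II keratin of glandular and transitional epithelia, had a start peak of height 2.05 in replicate 1 and 2.27 in replicate 2. It ranked at percentile 55.7 ± 6.45 of all start peaks (SD, n = 2). The peak lay at a coding start of the gene on chromosome 15 (101411043 to 101430313), inside the gene record. Its window is also that of the non-coding gene Gm671. Both heights were above the median start peak of their library.

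Krt8 and Krt18, the type II and type I partners of the filament of simple epithelia, are neighbours on chromosome 15, although other type I genes lie on chromosome 11. The Krt8 start peak had heights of 1.34 and 1.72 in replicates 1 and 2, at percentile 39.97 ± 12.5 (SD, n = 2). The Krt18 start peak had heights of 1.81 and 1.33, at percentile 41.9 ± 4.99 (SD, n = 2). The order of the partners thus differed between the libraries. The Krt8 peak also lay at the start of the lincRNA Gm36026, and peaks at shared windows cannot be assigned to 1 of the genes.

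Krt19, a small type I keratin without a tail domain, had a start peak only in replicate 2 of the shorter list, with height 1.74 at percentile 49.3. That peak lay near a coding start inside the gene, at base 100146120, and not at the 5′ end of the gene record at 100148665. The longer list added a Krt19 peak of height 1.37 in replicate 1. Krt20, the umbrella cell keratin, had start peaks only in the longer list, of height 0.476 in replicate 1 and 0.50 in replicate 2. Krt20 was therefore the weakest of the simple keratins in both libraries.

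Among stratified keratins, the strongest start peak belonged to Krt10, with heights of 2.70 and 2.43 in replicates 1 and 2, at percentile 63.6 ± 0.737 (SD, n = 2). This Krt10 peak lay at base 99386097 of chromosome 11, the start of a short coding transcript inside the gene, and not at the 5′ end of the gene record at 99389364. Krt5 had a start peak in replicate 2, of height 1.24 at percentile 35.5, and a longer-list peak of height 1.13 in replicate 1. Krt1, the epidermal partner of Krt10, had a peak of height 1.10 in replicate 1 and none in replicate 2, near a start inside the gene. Krt4, a keratin of mucosal stratified epithelia, had only a longer-list peak of height 0.741 in replicate 2. Krt13, Krt14, Krt15 and Krt17, type I keratins of mucosal, basal or appendage epithelium, had no start peak in either list of either library, and no base in their start windows reached the FDR limit of 0.05.

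Of the hair keratins, the shaft genes Krt33a and Krt86 had low start peaks in 1 library each. Krt33a had a height of 0.795 in replicate 2, at percentile 16.6, and a longer-list height of 0.816 in replicate 1. Its replicate 2 peak lay near the start of a non-coding transcript inside the gene, at base 100013987. The 5′ end of the Krt33a record is at 100016212. Krt86 had a height of 0.748 in replicate 1, at percentile 7.56, and a longer-list height of 0.545 in replicate 2. The 8 root sheath and companion layer genes had none in either list. Of the unassigned genes, Krt80 had heights of 1.42 and 2.04 in replicates 1 and 2, at percentile 44.7 ± 15.2 (SD, n = 2). The Krt80 peaks lay 359 and 199 bases from its start, and Krt80 was not counted with a window of 250 bases. Krt23 had only longer-list peaks, of height 0.578 and 0.554.

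The deposited per-site FDR was also read in the start windows. It is listed only up to 0.05, so most keratin genes had no value. At least 1 base with an FDR of 0.05 or below was listed in the start windows of 12 of 53 keratin genes in both libraries (22.6%), against 62.2% of all protein-coding genes. These were 5 of 5 simple, 3 of 15 stratified, 2 of 23 hair and 2 of 10 unassigned genes. They were the 11 genes with longer-list start peaks in both libraries, and Krt1, so this count nearly repeats the longer list. The simple keratins had a median of 400 such bases in replicate 1 and 343 in replicate 2, against 555 and 576 for all protein-coding genes, and the stratified, hair and unassigned classes had medians of 0 in both libraries. Krt18 had 581 and 343 such bases, Krt8 had 492 and 473, Krt7 had 400 and 447, Krt19 had 230 and 298, and Krt20 had 106 and 151. Krt20 was again the lowest of the simple class. Genes with more annotated starts have wider windows, and these were 1001 bases for Krt8, Krt18 and Krt20 but 2109 for Krt7 and 3003 for Krt19.

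**Figure D2:**
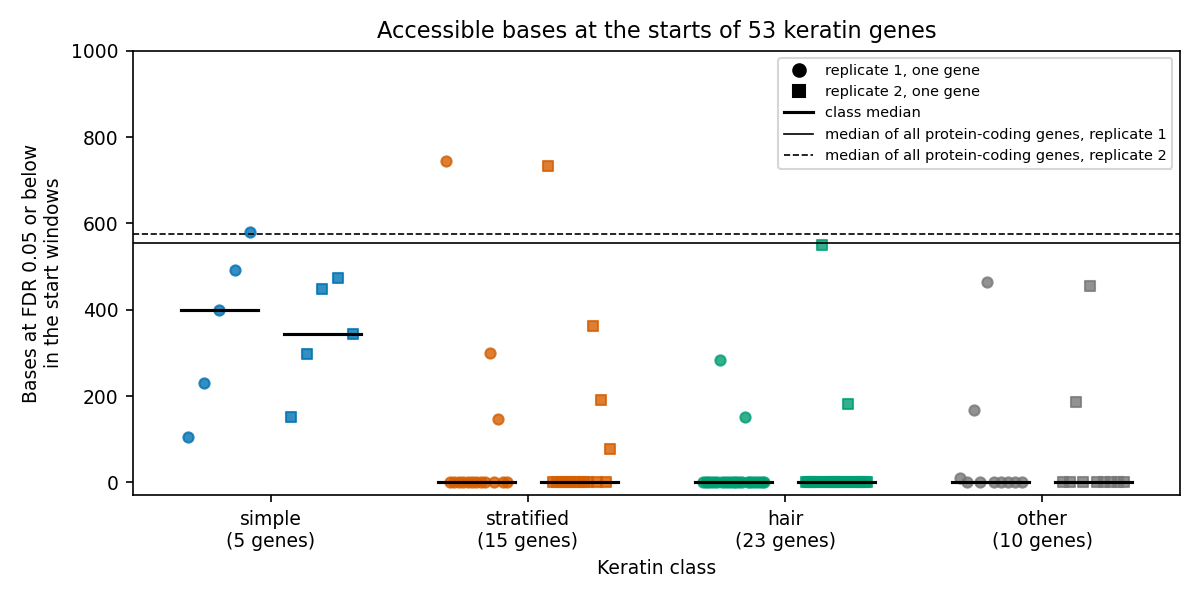
Bases with a deposited FDR of 0.05 or below in the start windows of each of the 53 keratin genes, by class; circles are replicate 1 and squares replicate 2, short black bars are class medians and the long lines are the medians of all protein-coding genes (555 and 576). All 5 simple keratins lie above 0, whereas the medians of the other classes are 0.

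Footprints were present in the start windows of 10 of 53 keratin genes in both libraries, against 58.5% of all protein-coding genes. All 5 simple keratins were among them. Krt7 had 5 and 7 footprints in replicates 1 and 2, Krt8 had 4 and 2, Krt18 had 7 and 2, Krt19 had 4 and 4, and Krt20 had 1 and 2. Krt10 had 9 and 6, the most of any keratin in replicate 1. The footprints of the 2 libraries did not always cover the same bases. In the RefSeq promoter of Krt7, 27 bases were covered in both libraries, in that of Krt18 15 bases, and in those of Krt8, Krt5 and Krt20 none.

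Promoter sequence was available for 36 of the 53 genes. The ratio of observed to expected CpG had a median of 0.270 in keratin promoters, against 0.389 over 27025 genes of the RefSeq table. The ratio was above 0.6 in 3 of 36 keratin promoters (8.33%), those of Krt7, Krt18 and the root sheath gene Krt28, against 36.4% of all promoters. Krt7 and Krt18 were thus among the few CpG-rich keratin promoters and also had start peaks in both libraries, whereas Krt28 had none and Krt8, with a ratio of 0.238, had one. The letters TATAAA, read on the strand of the gene, occurred 20 to 40 bases before the start in 13 of 36 keratin promoters (36.1%), against 2.22% of all promoters. These were 9 of 17 hair, 3 of 8 stratified, 1 of 4 simple (Krt20) and 0 of 7 unassigned genes. GGGCGG, the core of a GC box, occurred in 2 of 36 keratin promoters (5.56%), against 35.9% of all promoters, and 4 copies were in the Krt7 promoter printed above. In the Krt8 promoter TATAAA stands outside those 20 to 40 bases, and RefSeq and GENCODE place the Krt8 start differently.

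Away from gene starts, the clusters held more peaks. With 10 kb added on either side, the chromosome 15 cluster (101347444 to 102032027) had 22 other sites shared by both libraries, 3.12 per 100 kb, and the chromosome 11 cluster (99232761 to 100269871) had 13, 1.23 per 100 kb, against 0.571 per 100 kb of the whole genome. A site is a run of overlapping peaks, and shared means that the libraries overlapped by at least 1 base. Of the 22 sites on chromosome 15, 13 were intergenic, 5 intronic and 4 exonic, and of the 13 on chromosome 11, 11 were intergenic and 2 intronic. Near single genes, 15 of 53 keratin genes had another peak within 10 kb of a start in both libraries (28.3%), against 27.3% of all protein-coding genes, so that count was close to the background. By class these were 1 of 5 simple, 4 of 15 stratified, 8 of 23 hair and 2 of 10 unassigned genes. Simple keratins thus did not stand out at this distance.

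**Figure D3:**
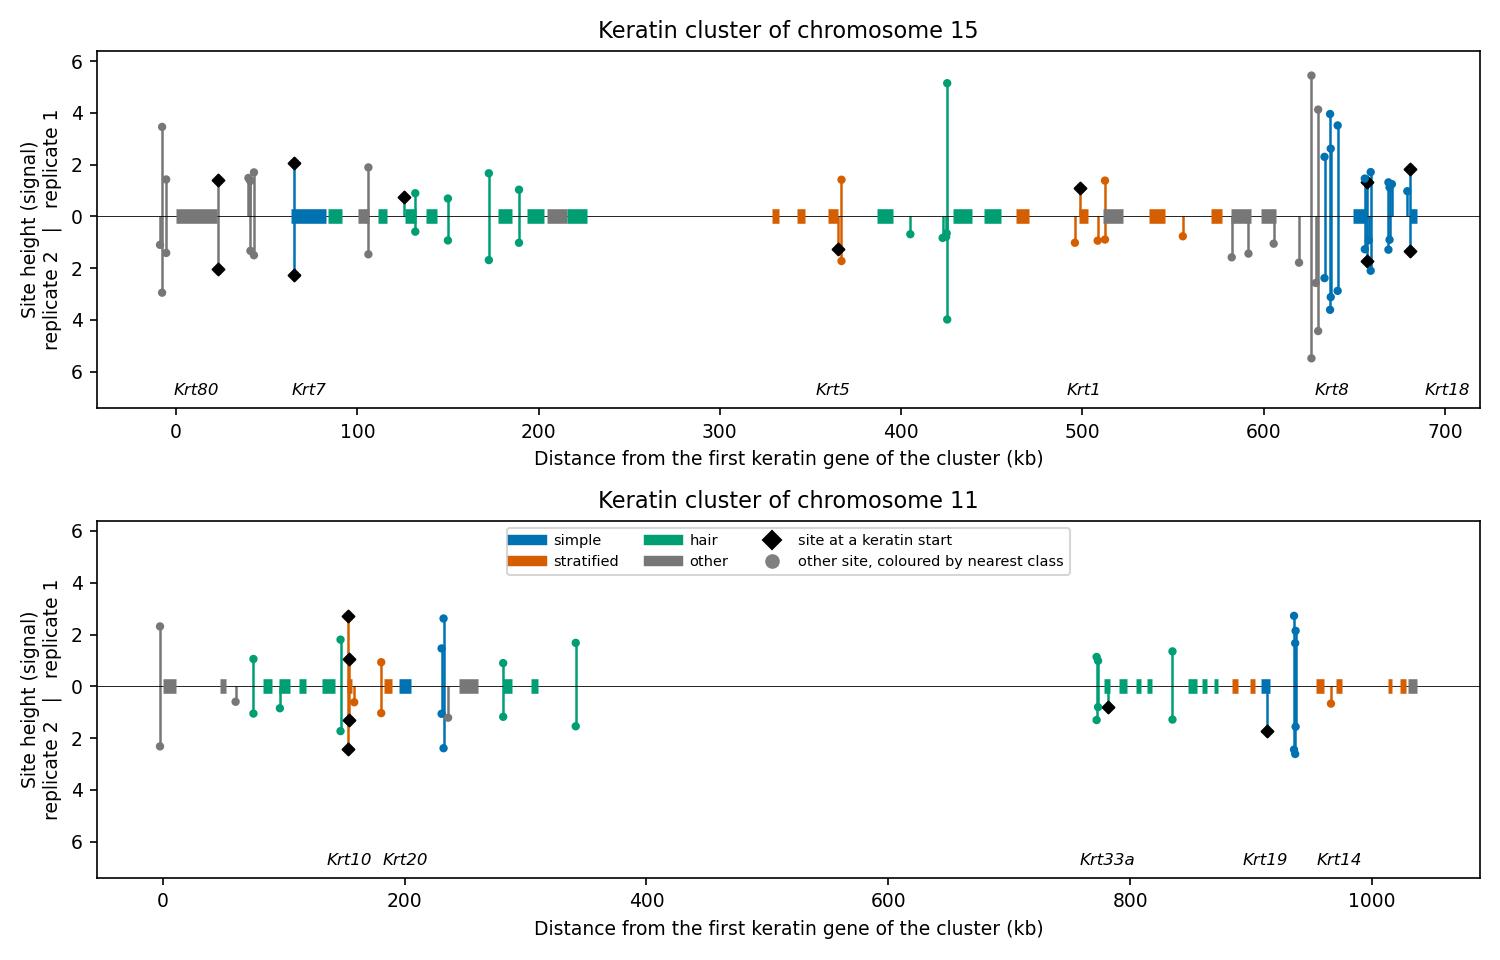
Accessible sites of the keratin clusters of chromosome 15 (top) and chromosome 11 (bottom), by distance in kb from the first keratin gene; stems above 0 give site height in replicate 1 and stems below 0 in replicate 2, blocks on the line are keratin genes coloured by class, and black diamonds are sites at keratin starts. The tallest stems, of 5.44 and 5.48, stand near the right end of the chromosome 15 cluster, and a long stretch without sites fills the middle of the chromosome 11 cluster.

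The sites were uneven along both clusters. The stretch of chromosome 11 from 99574380 to 100004925 (431 kb) held no site in either library, and it covers most of the block of 23 protein-coding Krtap genes, which encode matrix proteins of the hair shaft. None of the 23 Krtap genes had a start peak in either library, against 57.8% of all protein-coding genes in replicate 1 and 58.5% in replicate 2. The lack was not particular to them. Not counting the flanks, the other protein-coding genes of the clusters, 18 on chromosome 11 and 3 on chromosome 15, had none either. On chromosome 15 the longest stretch without a site ran from 101536800 to 101712855 (176 kb). Assigned to the keratin gene with the nearest start, 13 of the 35 shared other sites lay nearest a simple keratin, in 164 kb of sequence (7.91 per 100 kb). The stratified genes had 3 in 367 kb (0.817 per 100 kb), the hair genes 12 in 941 kb (1.27 per 100 kb) and the unassigned genes 7 in 289 kb (2.42 per 100 kb). The order of the stratified and hair classes differed between the libraries: replicate 2 alone had 8 sites nearest stratified genes (2.18 per 100 kb) and 17 nearest hair genes (1.81 per 100 kb), and replicate 1 alone had 3 (0.817 per 100 kb) and 12 (1.27 per 100 kb). Over the whole genome, other sites numbered 0.982 per 100 kb in replicate 2 and 0.680 in replicate 1. Of the 13 sites assigned to simple keratins, 7 were nearest Krt8, 3 nearest Krt19, 2 nearest Krt20 and 1 nearest Krt18.

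**Figure D4:**
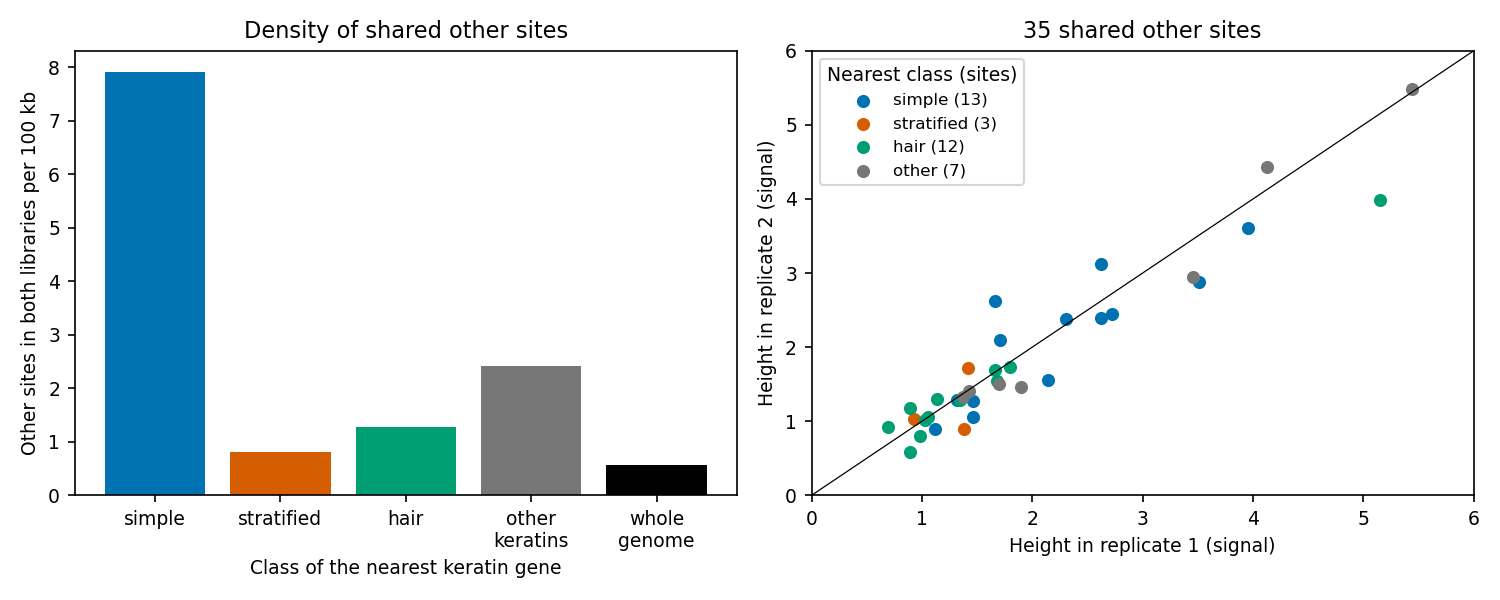
Left, shared other sites per 100 kb of sequence nearest to each keratin class, beside the whole genome; bars start at 0. Right, height of the 35 shared other sites in replicate 1 (x axis) and replicate 2 (y axis), coloured by the class of the nearest keratin gene, with the line of equal height. The simple class has 7.91 sites per 100 kb, against 0.571 in the whole genome.

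Sites near simple keratins were also tall. Their median height was 2.14 in replicate 1 and 2.38 in replicate 2, against 1.29 and 1.23 for shared other sites of the whole genome. The strongest site of either cluster was site 1, intergenic, with heights of 5.44 and 5.48 in replicates 1 and 2, at percentile 99.7 ± 0.115 of all other peaks (SD, n = 2). It lay 19.6 kb upstream of Krt78, an unassigned type II keratin, on the side of Krt8. Sites 3, 10, 4, 7 and 6 followed between site 1 and the end of Krt8, and all were intergenic. Site 3 had heights of 4.13 and 4.43, site 10 had 2.30 and 2.38, site 4 had 3.96 and 3.61, site 7 had 2.62 and 3.12, and site 6 had 3.51 and 2.88. Each of these 6 sites was taller than the start peaks of Krt8 and Krt18 in both libraries. Site 6, the nearest to the Krt8 start, lay 16.2 kb from it.

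**Figure D5:**
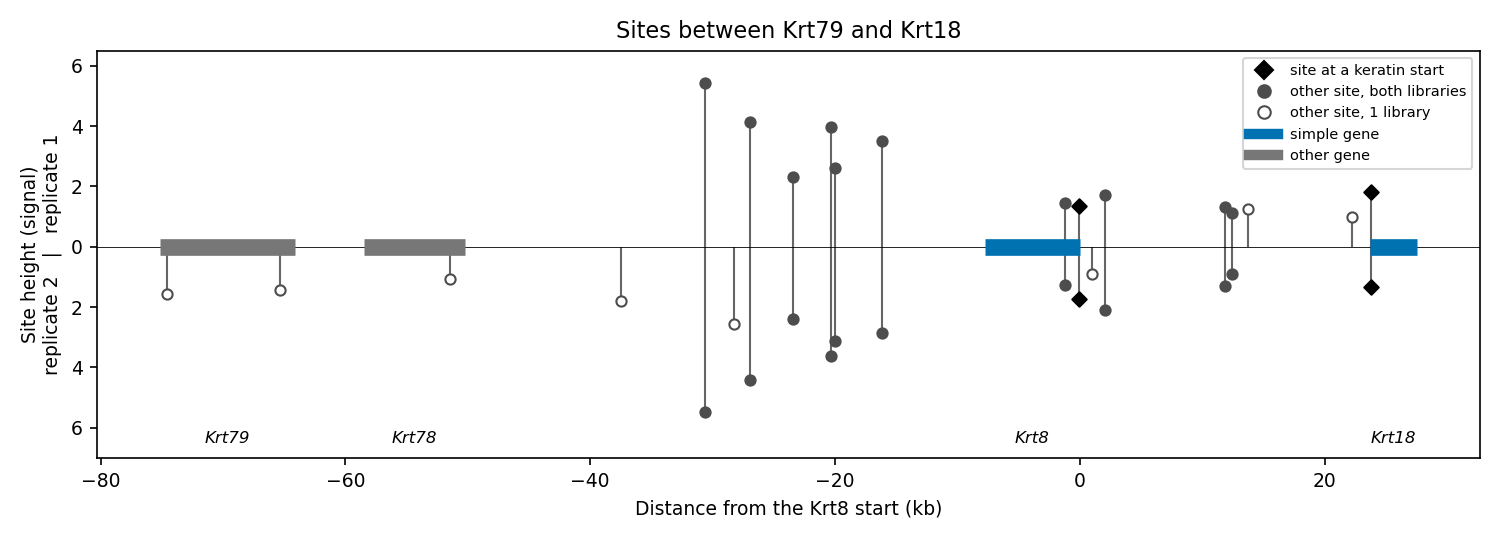
Sites between Krt79 and Krt18 on chromosome 15, by distance in kb from the Krt8 start; stems above 0 give height in replicate 1 and below 0 in replicate 2, filled circles are other sites found in both libraries, open circles other sites found in 1 library and diamonds sites at keratin starts. A row of 6 tall shared sites stands between Krt78 and Krt8.

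Krt8 and Krt18 had further sites close by. An intronic Krt8 site, 1.2 kb inside the gene, had heights of 1.46 and 1.27 in replicates 1 and 2. A site 2.05 kb upstream of Krt8, in an exon of Gm36026, had heights of 1.71 and 2.10. A pair of shared sites lay between the partner genes, 11.8 kb upstream of Krt8 and 11.2 kb upstream of Krt18. Krt5 had 1 shared site 1.67 kb upstream of its start, of height 1.42 and 1.72. That upstream site was in both shorter lists, although the Krt5 start peak was in only 1.

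On chromosome 11 the strongest other site was site 8, 19.6 kb upstream of Krt19, of height 2.72 and 2.45 in replicates 1 and 2. A further 2 shared sites followed 20.6 and 20.9 kb upstream of Krt19, of height 1.67 and 2.62 for the nearer and 2.14 and 1.56 for the farther. Site 9 lay 26.8 kb upstream of Krt20, of height 2.62 and 2.39, with a lower shared site at 25.2 kb. Sites 8 and 9 were thus taller in both libraries than the start peaks of Krt19 and Krt20, whereas the farthest Krt19 site was lower than the Krt19 start peak in replicate 2. Among the 10 strongest sites, those nearest genes of other classes were sites 1 and 3 (Krt78), site 2 (Krt72, a root sheath gene) and site 5 (Krt80). Site 2, intergenic and 5.81 kb from the Krt72 start, had heights of 5.15 and 3.98, although Krt72 had no start peak. Site 5, in an intron of Gm35853, had heights of 3.46 and 2.95.

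Short motifs were searched in the 35 shared other sites, in 200 bases at the middle of the replicate 1 peak and on both strands. TGANTCA (AP-1) was in 14.3% of the cluster sites, against 12.03% of 16097 shared other peaks of the genome. CACCC (KLF) was in 42.9%, against 46.0%, and GGAATG (TEAD) in 14.3%, against 11.3%. AGATAA, which factors of the GATA family bind, was in 4 of the 35 sites (11.4%), against 6.68%, and GCCNNNGGC (AP-2) in 2 of the 35 (5.71%), against 10.5%. These shares rest on few sites. The CTCF consensus, searched after the printed sequences had been read, with at most 1 mismatch over its 14 letters, matched 13 of the 35 cluster sites (37.1%), against 36.7% of 1967 shared other peaks of chromosomes 11 and 15. At sites 4, 5, 6, 7 and 9 that match lay wholly in footprints of both libraries, and at sites 4, 6, 7 and 9 it can be read within the long runs of capitals above. Weaker cluster sites also had matches wholly in footprints, such as those 20.9 kb upstream of Krt19 and 25.2 kb upstream of Krt20. The overlap with footprints was not counted for the 1967 background peaks. A match is a description of these letters and does not show that CTCF was bound.

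Genes of the keratin network outside the clusters were set beside the same background. Of 12 genes that anchor or assemble keratin filaments, 11 had start peaks in both libraries (91.7%), against 56.2% of all protein-coding genes. The highest was Jup, which encodes the junction protein plakoglobin, at percentile 98.5 ± 0.859, followed by Tchp at 85.6 ± 4.32 and Plec, which encodes plectin, at 77.4 ± 3.04 (SD, n = 2 each). Eppk1 had no start peak. Of 11 epithelial regulators, 9 had start peaks in both libraries (81.8%), with Klf5 at percentile 84.9 ± 6.41, Klf4 at 73.3 ± 2.38 and Grhl2 at 57.3 ± 4.15 the highest (SD, n = 2 each). Trp63, which encodes the p63 factor of basal cells, had none in either list, and Grhl3 had one in replicate 2 only of the shorter list and in both libraries of the longer list. Of 15 other intermediate filament genes, 9 had start peaks in both libraries (60%), close to the share of all protein-coding genes, with Lmna, Synm and Lmnb1 the highest, and Des, Prph, Nefm, Nefh, Nes and Bfsp2 did not.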

How the data were processed

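Every list was made by the authors separately for each library on mm10, per the labels; aligner, peak caller and footprint caller: not given in the sources used here. Peak heights are a signal the authors deposited without a stated scale. They were whole multiples of 0.0113 in replicate 1 and 0.00893 in replicate 2 for 100% of low heights (tolerance 0.05 of a step). Read depth itself is unknown, so no interval needing it is given. The authors also deposited an FDR per site, an adjusted p-value, listed up to 0.05. Each footprint carries the same deposited value, 0.01, with no strength. Reads of a hybrid were placed on the C57BL/6J assembly.

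Peaks were compared by position with GENCODE M21 starts in Python 3.11.15 with pandas 2.3.3 and numpy 2.4.6; the overlap code was tested on simulated intervals. Percentiles rank start peaks among start peaks and other peaks among other peaks of a library. The keratin set, the classes and the gene lists were chosen with earlier results of these data known. Genes named singly were all members with a start peak in either library, the simple class, Krt5, Krt13, Krt14, Krt15 and Krt17, the 10 strongest shared other sites and, of each partner list, the 3 highest genes and those lacking a peak. Krt4, Krt23 and Krt28, and sites beside Krt8, Krt18, Krt5, Krt19 and Krt20, were named after their values were seen. Alternatives covered the longer list, other windows, starts, heights, flanks and overlaps, and each library alone.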

Additional observations from a re-analysis of the deposited data

How the results depend on the processing

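Of 50 alternative values, 32 kept to within 1.5 times the main count and 18 did not; none bears on a test, since no test was run. With the longer peak list, keratin genes with a start peak in both libraries numbered 11 in place of 5, simple 5 in place of 3, stratified 2 in place of 1, hair 2 in place of 0, and shared other sites 36 in place of 22 on chromosome 15 and 21 in place of 13 on chromosome 11. With peaks above each library's median height only, these were 3 keratin genes, 13 sites on chromosome 15 and 6 on chromosome 11. The share of all protein-coding genes with a start peak in both libraries was then 47.5%. With the 5′ end of the gene record as the only start, 3 keratin genes (Krt80, Krt8 and Krt18) and 0 stratified genes had a start peak. Of all protein-coding genes, 50.8% then had one in both libraries. With flanks of 50 kb the chromosome 11 cluster held 20 shared other sites. With each library alone, the counts ranged from 7 to 8 for keratin genes, 3 to 4 for simple, 2 to 2 for stratified and 1 to 1 for hair genes, and other sites from 26 to 36 on chromosome 15 and 13 to 18 on chromosome 11. The cause of these shifts was not tested. No paired analysis was possible because the series has 1 group. With 2 libraries, the SD is a rough measure, and a peak missing from a list may lie below that list's limit at this depth.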
